A study of Rattus norvegicus with 15 samples.

Results

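Glycolysis below hexokinase was followed through 9 genes, Pfkl, Pfkm, Pfkp, Aldoa, Gapdh, Eno1, Pkm, Pklr and Ldha, in the intestine of rats after Roux-en-Y gastric bypass (RYGB). Their probes were found by gene name on the arrays, with Pkm listed under its older name Pkm2, and each probe was kept apart. This gave 11 probes among 41012, 2 each for Gapdh and Eno1 and 1 for each other gene. All 11 were bright enough to be tested, among 27892 probes tested in all.

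Once hexokinase has trapped glucose in the cell as glucose 6-phosphate, phosphofructokinase makes the committed step of the pathway and aldolase splits the product into trioses. Glyceraldehyde-3-phosphate dehydrogenase, enolase and pyruvate kinase carry the carbon on to pyruvate, and lactate dehydrogenase A turns pyruvate into lactate. Several steps have isoenzymes with a tissue preference, such as liver-type (Pfkl), muscle-type (Pfkm) and platelet-type (Pfkp) phosphofructokinase, and Pkm, which most tissues use, beside Pklr of liver, red cells and small intestine.

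The arrays came from 15 male rats, 1 array per rat and 5 rats per group. Goto-Kakizaki (GK) rats, a line bred from Wistar rats, develop type 2 diabetes without obesity. GK-S-30 rats were operated on at 16 wk of age and had a Roux limb (RL), the stretch of intestine joined to the stomach, of 30 cm. GK-Sham-PF rats were GK rats of the same age that were pair-fed and had the intestine cut 16 cm from the ligament of Treitz and rejoined without rearrangement, and Wistar rats were age-matched nondiabetic controls. All rats were fasted overnight before tissue was taken, 14 wk after the operations. The GK-S-30 tissue was a piece of RL near its join to the stomach, and the other groups gave a corresponding piece farther from the ligament of Treitz than the sham cut. The comparison of GK-Sham-PF with Wistar thus combines strain, diabetes, sham operation and pair-feeding. That of the 2 GK groups sets the bypass against the sham operation in corresponding pieces of intestine. The comparison of GK-S-30 with Wistar combines strain, diabetes and the bypass operation, which cannot be told apart there.

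Values are log2 signals in arbitrary units after quantile normalization. They can be compared between rats for 1 probe but not between probes. The arrays of Wistar replicate 3 and of GK-Sham-PF replicate 5 were dimmer, with a 75th percentile of processed signal of 207 and 208 against 302 to 357 on the others. Groups were spread unevenly over the 4 slides, of which slide B carried Wistar with sham-operated rats, slide C carried sham-operated with bypassed rats, and slides A and D carried 1 group each, Wistar and GK-S-30. All 13 tested epithelium markers, among them Vil1, Cdx2 and Fabp2, were well above background on every array. The tissue was bulk intestine, so a change in the share of a cell type and a change in RNA per cell cannot be told apart.

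The oligos that carried the measurements were 60 bases long. Those printed here, 5′ to 3′ in lower case, are of the members called in a comparison (Pfkl and Aldoa), of Gapdh and Pklr, whose values are given rat by rat, and of 3 members that did not pass (Pfkp, Eno1 and Ldha). For Pfkl the first 30 bases are given, which end in the stop codon. Positions are those of the array annotation (rn4).
Pfkl, chr20:11032149-11032208, plus strand: cgcaccttgagcatagacaagggtttctga
Pfkp, chr17:74822635-74822694, plus strand: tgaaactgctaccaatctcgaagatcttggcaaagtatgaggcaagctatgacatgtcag
Aldoa, chr1:185972062-185972121, minus strand: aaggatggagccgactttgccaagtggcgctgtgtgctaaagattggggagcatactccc
Gapdh probe 1, chr4:161282440-161282609, minus strand: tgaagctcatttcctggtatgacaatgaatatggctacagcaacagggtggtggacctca
Gapdh probe 2, chr4:161282655-161282714, minus strand: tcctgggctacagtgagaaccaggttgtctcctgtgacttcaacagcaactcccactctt
Eno1 probe 2, chr5:167404770-167405180, plus strand: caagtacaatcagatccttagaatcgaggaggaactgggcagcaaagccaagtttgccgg
Pklr, chr2:181221375-181221434, plus strand: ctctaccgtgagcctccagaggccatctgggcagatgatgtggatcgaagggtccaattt
Ldha, chr1:97407674-97407733, plus strand: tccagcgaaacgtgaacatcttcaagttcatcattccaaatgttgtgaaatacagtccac

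Gapdh probe 1 covers 170 bases of the genome and Eno1 probe 2 covers 411, which is more than their 60 bases, so both cross an exon junction. The remaining probes lie at chr7:136845936-136845995 (Pfkm), chr5:167405364-167405424 (Eno1 probe 1) and chr8:63507957-63508016 (Pkm), all on the plus strand. Probes of the array that are not listed under Gapdh shared a run of at least 15 bases with its oligos, 11 with probe 1 and 6 with probe 2. For Ldha there were 2 such probes, and for the other members there were none. Gapdh has many near-identical copies in rodent genomes, and how far they contribute to its signal was not tested.

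The comparison between the GK groups sets RYGB against the sham operation. Of the 11 probes, 1 passed the limma test, Pfkl, against 6.7% of all tested probes. Mean signal was higher in GK-S-30 for 9 of the 11, with a median log2 difference of 0.12 against -0.03 over all tested probes and a range from -0.07 to 0.69. For 4 probes, Pfkl, Aldoa and both of Gapdh, every GK-S-30 array lay above every GK-Sham-PF array with a value, where 7.71% of all tested probes had groups that did not overlap in either direction. Between GK-S-30 and Wistar, 1 of 11 passed, Aldoa, against 22.8% of all tested probes, and 3 probes did not overlap, against 18% of all tested probes. Between GK-Sham-PF and Wistar, limma called 0 of 11, against 7.84% of all tested probes, none had an unadjusted p under 0.05, and the methods' Tukey comparison also called 0. In that comparison 0 probes had groups that did not overlap, against 8.82% of all tested probes. Any 2 of the 3 comparisons share the 5 arrays of a group and are not independent.

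**Figure D1:**
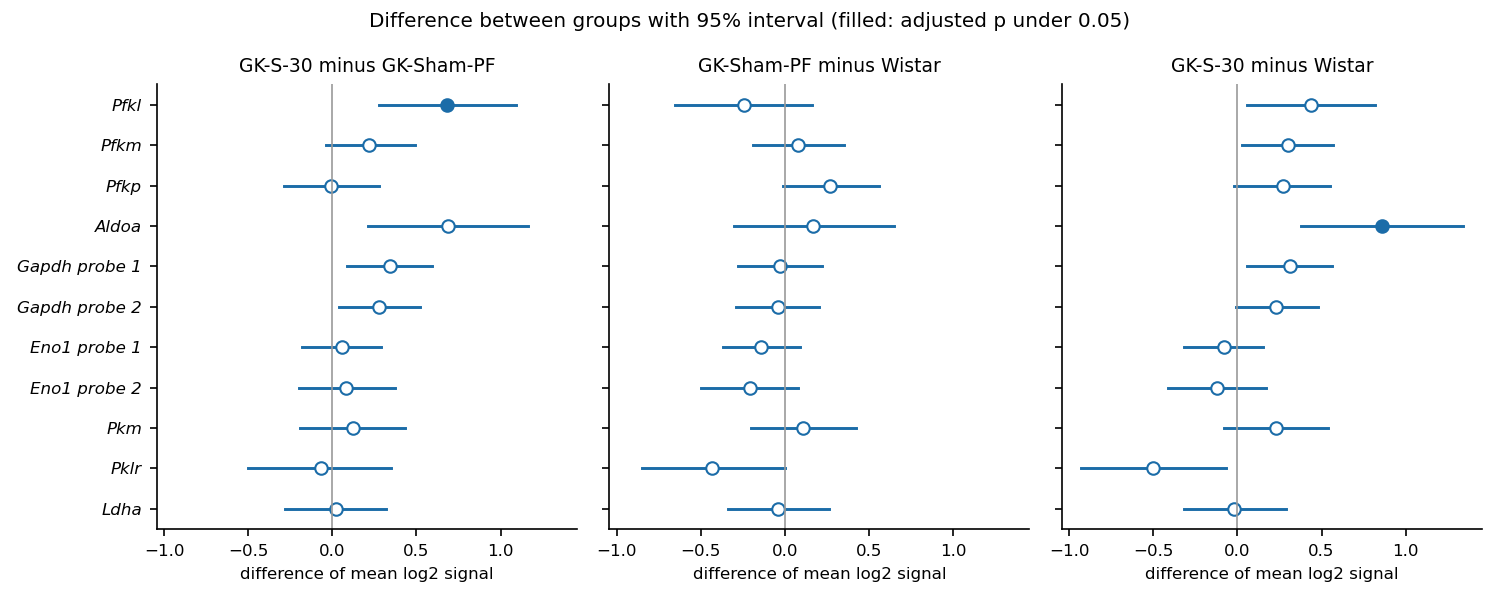
Difference of mean log2 signal between groups for the 11 probes, with 95% intervals from limma, in the 3 comparisons. Filled points passed at an adjusted p under 0.05, which were Pfkl in GK-S-30 minus GK-Sham-PF and Aldoa in GK-S-30 minus Wistar.

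Phosphofructokinase was measured through its 3 genes. Pfkl, the liver type, had log2 signals of 8.25, 8.28, 7.43, 8.54 and 8.40 in Wistar replicates 1 to 5. In GK-Sham-PF the values were 8.18, 7.86, 7.98 and 7.73 in replicates 1, 2, 4 and 5, and in GK-S-30 they were 8.74, 8.76, 8.55, 8.38 and 8.67. The 5 GK-S-30 rats lay above those 4 GK-Sham-PF rats and overlapped with Wistar. The fit put GK-S-30 1.61-fold above the sham group (log2 difference 0.68 ± 0.19 SE, n = 5 and 4, adjusted p = 0.0443 by limma).

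The Pfkl value of GK-Sham-PF replicate 3 was left out because the image software had marked its only spot as an outlier. That spot read 11.49, above every other array by more than the spread within any group. With it kept, as in the deposited matrix, the difference from GK-Sham-PF was -0.03 (adjusted p = 0.987 by limma), so the call rests on leaving out this spot. The call was also lost in 12 of 15 fits that left out a single array, with an adjusted p of up to 0.104, while the difference stayed between 0.62 and 0.76. On slide C, the only slide with both groups, it was 0.89 (2 arrays each). It was 0.77 there when GK-Sham-PF replicate 5, the dimmer array of that slide, was left out, a choice made after the data were seen that leaves 1 sham array.

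Pfkm, the muscle type, ranged from 7.99 to 8.34 in Wistar, from 8.10 to 8.50 in GK-Sham-PF and from 8.11 to 8.83 in GK-S-30 rats, and the 3 groups overlapped. Its mean was 0.22 ± 0.13 (SE) above GK-Sham-PF and 0.30 ± 0.13 above Wistar on the log2 scale (adjusted p = 0.345 and 0.10 by limma). Pfkp, the platelet type, was nearly equal in both GK groups, with means of 11.71 (GK-S-30) and 11.72 and a 95% interval of GK-S-30 minus the sham group from -0.29 to 0.28. Within slide C, which carried both, its difference was 0.23 (2 arrays each), and 0.16 without GK-Sham-PF replicate 5, the dimmer array there. In Wistar its mean was 11.44, which put GK-Sham-PF 0.27 ± 0.13 higher (adjusted p = 0.288 by limma). Within slide B that last difference was 0.54, from 3 GK-Sham-PF arrays and 1 Wistar array.

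Aldoa encodes aldolase A, the ubiquitous aldolase of glycolysis, and was the only member called against Wistar. Its log2 signal was 12.83, 12.80, 11.67, 12.92 and 12.85 in Wistar replicates 1 to 5 and 13.05, 12.88, 12.84, 13.01 and 12.15 in GK-Sham-PF. In GK-S-30 it was 13.51, 13.64, 13.56, 13.39 and 13.28, so that all 5 rats lay above all 10 others. The lowest value of each control group came from its dimmer array.

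Aldoa was 1.82-fold higher in GK-S-30 than in Wistar (log2 difference 0.86 ± 0.22 SE, n = 5 each, adjusted p = 0.0121 by limma). This held in all 15 fits without a single array, with an adjusted p of up to 0.0284, and the difference was 0.62 without Wistar replicate 3. Against GK-Sham-PF it was 1.61-fold higher, 0.69 ± 0.22 on the log2 scale, and did not pass (adjusted p = 0.0837 by limma). With both dimmer arrays left out, an alternative chosen after the data were seen, the difference from GK-Sham-PF was smaller, 0.52, and passed (adjusted p = 0.00319 by limma), and scaling to the 75th percentile also gave a pass (0.76, adjusted p = 0.0362). In all it passed in 5 of 15 other settings, and in 1 of 15 fits without a single array, that without Wistar replicate 3 (adjusted p = 0.0112 by limma). On slide C the difference from GK-Sham-PF was 0.99 (2 arrays each) and 0.56 when GK-Sham-PF replicate 5, the dimmer array of that slide, was left out, also a choice made after the data were seen, while GK-S-30 and Wistar shared no slide, and a fixed slide effect in the model gave a difference from Wistar of 1.09 that did not pass (adjusted p = 0.413). GK-Sham-PF and Wistar differed by 0.17 ± 0.22 (adjusted p = 0.767), with the sign turned to -0.06 without Wistar replicate 3.

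Gapdh, whose product oxidizes and phosphorylates the triose and yields NADH, was read by 2 probes that do not overlap. Probe 1, spotted 10 times on each array with a median SD of 0.04 between spots, gave 16.44, 16.39, 15.92, 16.47 and 16.47 in Wistar. It gave 16.47, 16.43, 16.31, 16.21 and 16.12 in GK-Sham-PF, against 16.59, 16.70, 16.54, 16.80 and 16.61 after RYGB. Again every GK-S-30 rat was above the 10 others, by a small step.

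The difference of Gapdh probe 1 was 0.34 ± 0.12 (SE) against GK-Sham-PF and 0.31 ± 0.12 against Wistar, 1.27-fold and 1.24-fold, and neither passed (adjusted p = 0.0989 and 0.0666 by limma). Probe 2 differed in the same direction by 0.28 ± 0.11 and 0.23 ± 0.11 (adjusted p = 0.172 and 0.158), and its lowest GK-S-30 value equalled the highest GK-Sham-PF value at 2 decimals, 16.04. Under 75th percentile scaling both probes passed in both comparisons, with differences of 0.41 and 0.37 against GK-Sham-PF and 0.33 and 0.32 against Wistar (adjusted p from 0.0174 to 0.029). Over all other settings, probe 1 passed in 3 of 15 against GK-Sham-PF and 2 of 15 against Wistar, and probe 2 in 1 of 14 in each. Without a single array, probe 1 passed against GK-Sham-PF in 1 of 15 fits, that without Wistar replicate 3 (adjusted p = 0.0288), and in none against Wistar, and probe 2 passed in none. Gapdh is often taken as a reference gene, and its 2 probes differed by at most 0.04 between GK-Sham-PF and Wistar.

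**Figure D2:**
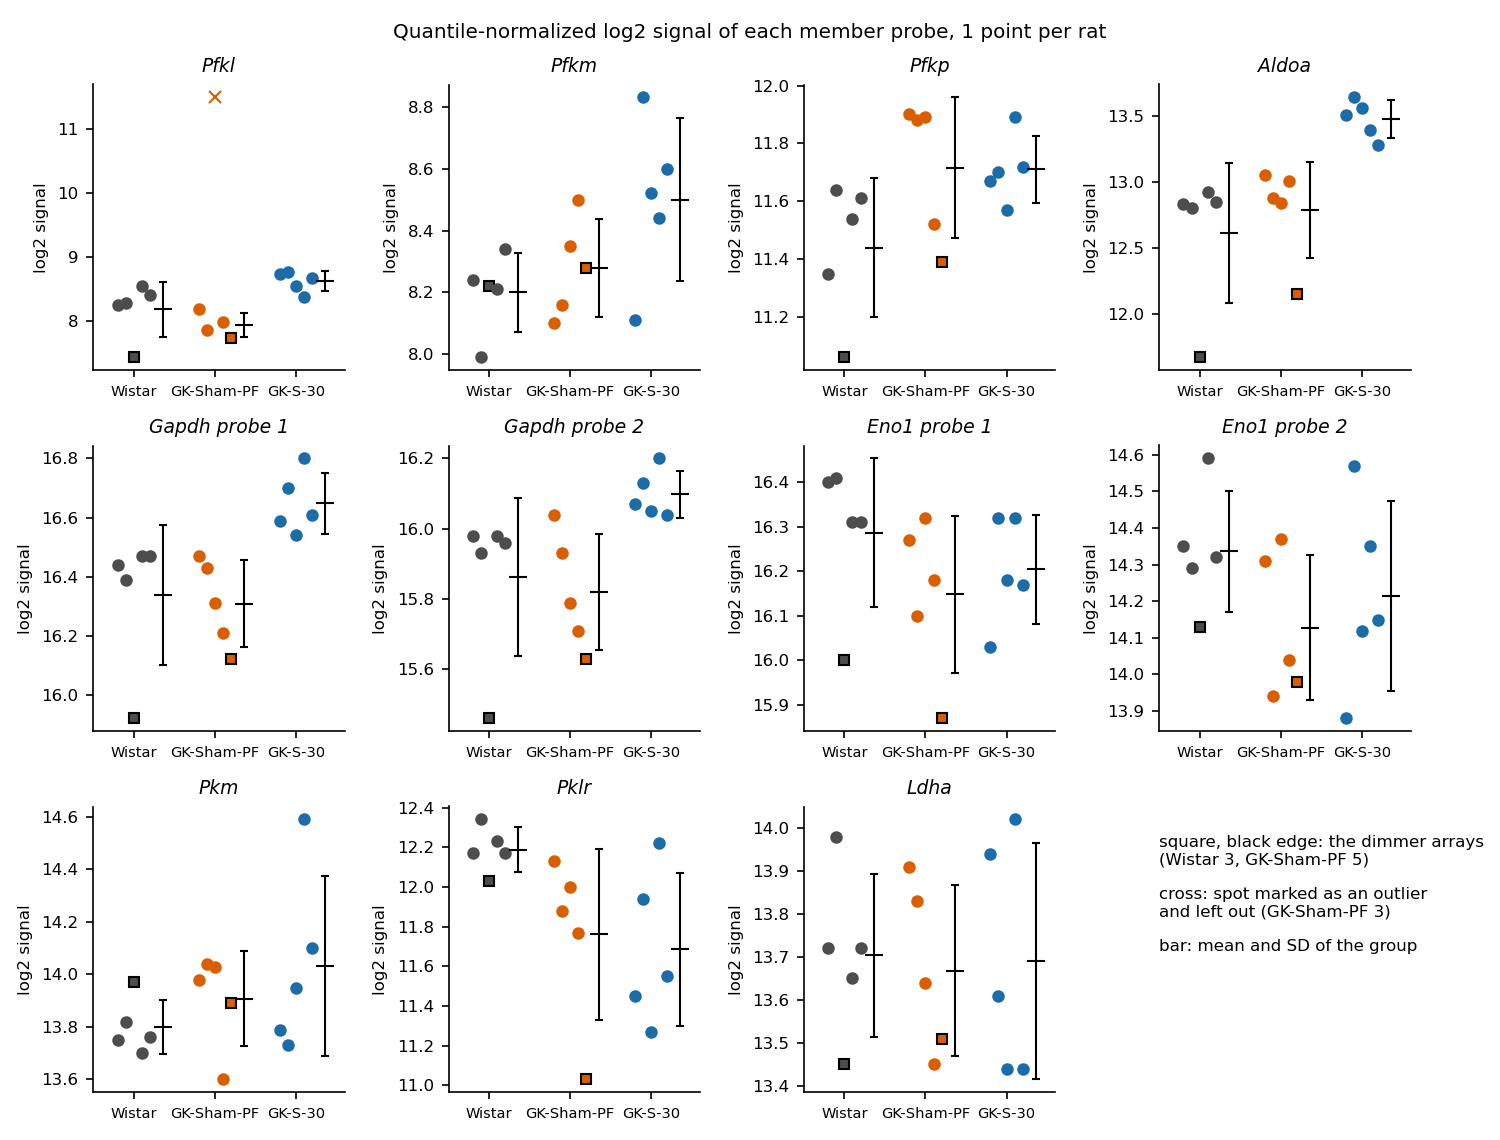
Quantile-normalized log2 signal of each probe, 1 point per rat, with the group mean and SD beside the points and the scale of each panel set to its own probe. Aldoa and Gapdh probe 1 in GK-S-30 lie above all other arrays, the squares of the dimmer arrays are the lowest points of both control groups for Aldoa and Gapdh, and the cross is the Pfkl spot at 11.49 that was left out.

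Enolase 1, the widely expressed enolase, did not pass the test in any comparison by either probe. The brighter of its probes ranged from 16.00 to 16.41 in Wistar, from 15.87 to 16.32 in GK-Sham-PF and from 16.03 to 16.32 in GK-S-30, and the groups overlapped throughout. The 95% interval for GK-S-30 minus GK-Sham-PF was -0.18 to 0.29 for probe 1 and -0.20 to 0.37 for probe 2.

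Pyruvate kinase makes the ATP-yielding last step to pyruvate. Pklr had log2 signals of 12.17, 12.34, 12.03, 12.23 and 12.17 in Wistar, 12.13, 11.88, 12.00, 11.77 and 11.03 in GK-Sham-PF, against 11.45, 11.94, 11.27, 12.22 and 11.55 after RYGB. Both GK groups were lower on average and more spread than Wistar, with SDs of 0.43 (GK-Sham-PF) and 0.39 against 0.11, and both overlapped with it. The lowest GK-Sham-PF value, 11.03, came from its dimmer array, replicate 5, and the others of that group ran from 11.77 to 12.13. The difference from Wistar was -0.50 ± 0.20 (SE) in GK-S-30 and -0.43 ± 0.20 in GK-Sham-PF, and neither passed (adjusted p = 0.0884 and 0.269 by limma). Over fits without a single array, the difference of GK-Sham-PF from Wistar ran from -0.52 to -0.24. For Pklr without both dimmer arrays, the difference of GK-S-30 from Wistar was -0.54 and passed (adjusted p = 0.0295 by limma). With slide as a fixed block that difference turned to 0.13 (adjusted p = 0.926 by limma). Pkm ranged from 13.70 to 13.97 in Wistar, from 13.60 to 14.04 in GK-Sham-PF and from 13.73 to 14.59 in GK-S-30. Its mean in GK-S-30 was 0.23 ± 0.15 above Wistar (adjusted p = 0.287), and the highest value, 14.59, came from GK-S-30 replicate 4. Which of the M1 and M2 splice forms of Pkm the probe reads was not tested.

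Ldha, at the branch to lactate, was nearly equal in the 3 groups, with a mean of 13.70 for Wistar, 13.67 for GK-Sham-PF and 13.69 for GK-S-30. Its values ran from 13.45 to 13.98, from 13.45 to 13.91 and from 13.44 to 14.02. The probe was spotted 10 times, and the median SD between spots of an array was 0.07, well under the SD between rats of 0.19 to 0.28. The 95% interval of GK-S-30 minus GK-Sham-PF was -0.28 to 0.32 on the log2 scale.

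Pairs of isoenzyme genes were then set against each other on the same array, where only the change between groups can be read. No pair passed at 0.05 in any comparison after adjustment over 15 tests. The smallest p that this exact permutation test can give with these group sizes is 0.00794. A single pair at that floor could not pass after the adjustment, so the lack of a pass does not show that the balance of isoenzymes was unchanged. Pkm minus Pklr was 0.73 higher in GK-S-30 and 0.53 higher in GK-Sham-PF than in Wistar (exact permutation p = 0.0159 and 0.0238, both 0.0595 after adjustment), with overlap between the groups. The dimmer array of the sham group, replicate 5, read 2.86, against 1.83 to 2.16 in its other rats. Without that array the change of GK-Sham-PF from Wistar was 0.36. The per-rat difference Pfkp minus Pfkl ran from 2.93 to 3.51 in GK-S-30 and from 3.54 to 4.03 in the 4 GK-Sham-PF rats with a Pfkl value. It was 0.65 lower on average in GK-S-30 than after the sham operation, without overlap (exact permutation p = 0.0159, adjusted 0.0595, n = 5 and 4), and the change was 0.02 in the deposited matrix, which keeps the marked Pfkl spot. Pfkm minus Pfkl changed by -0.44 between the same groups (exact permutation p = 0.0635, adjusted 0.136). For Ldha minus Ldhb the largest change was -0.31, for both GK groups against Wistar (exact permutation p = 0.262 and 0.286, adjusted 0.377).

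**Figure D3:**
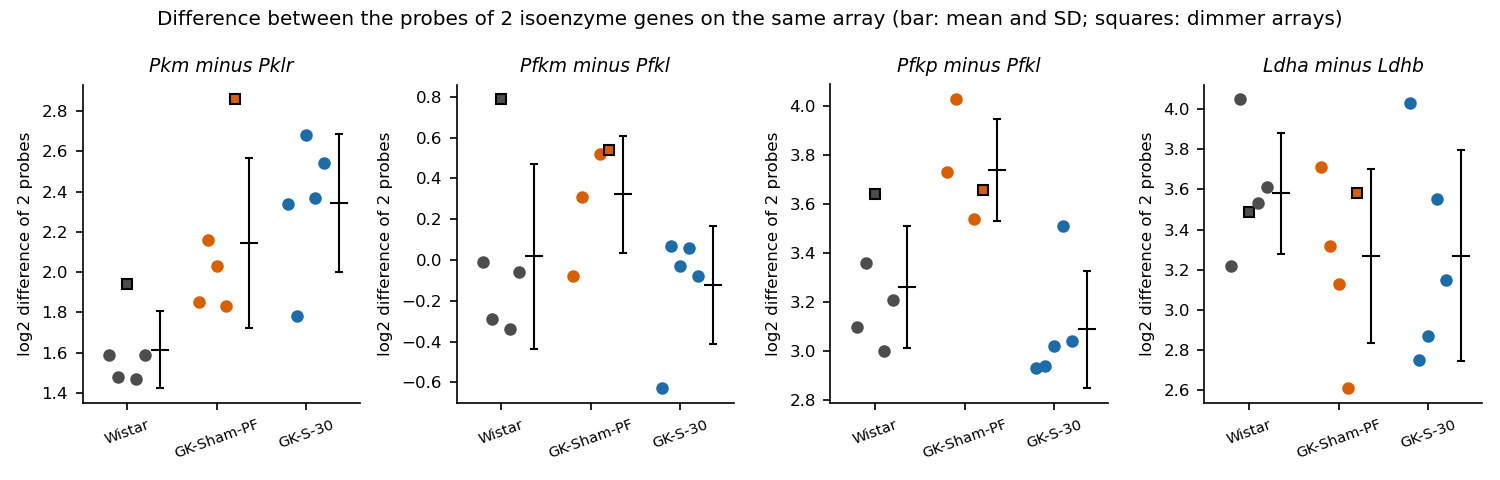
Log2 difference between the probes of 2 isoenzyme genes on the same array, 1 point per rat, with group mean and SD. The zero of each axis has no meaning because probes differ in brightness, and the GK-S-30 points of Pfkp minus Pfkl, from 2.93 to 3.51, lie below those of GK-Sham-PF, from 3.54 to 4.03.

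The other genes of glycolysis, 22 tested, gave a setting for the members. Against GK-Sham-PF 2 rose, 1 fell and 19 did not pass in GK-S-30, and against Wistar 8 rose, 2 fell and 12 did not pass, with median log2 differences of 0.17 and 0.28 against -0.03 over all tested probes in both. The shares of all tested probes that passed in either direction were 6.7% and 22.8%. Hk1, the hexokinase of most tissues, was 1.81-fold above GK-Sham-PF and 1.67-fold above Wistar in GK-S-30 (adjusted p = 0.00227 and 0.00157 by limma). Aldoc, another aldolase gene, was 1.81-fold and 1.98-fold higher (adjusted p = 0.00983 and 0.000955). The GK-S-30 rats overlapped with neither group for these 2 genes.

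Against Wistar, GK-S-30 rats also had higher Hk2 (log2 difference 0.72), Gpi (0.32), Tpi1 (0.35) and Eno2 (0.80), along with Pfkfb2 (0.40) and Pfkfb4 (0.52), which set the level of an activator of phosphofructokinase. Lower in GK-S-30 than in Wistar were 2 genes known from testis, Gapdhs (-0.64) and Ldhc. Ldhc was well above background in Wistar only and was at least 2.67-fold lower in GK-S-30 and at least 3.25-fold lower in GK-Sham-PF. It entered the tests through Wistar alone, so that filter fixed the direction of its calls against Wistar. Pgk1, the kinase step after Gapdh, was 0.79 ± 0.23 (SE) above GK-Sham-PF without overlap and just missed the threshold (adjusted p = 0.0503 by limma). Between GK-Sham-PF and Wistar 1 gene rose, Eno2 (0.58), 1 fell, Ldhc, and 20 did not pass, with a median of 0.07, where 7.84% of all tested probes passed.

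Of 18 genes that handle pyruvate and lactate, 4 rose and 1 fell against GK-Sham-PF, and 4 rose and 1 fell against Wistar, with medians of 0.21 and 0.22. The shares of all tested probes that passed were 6.7% and 22.8%, and their median difference was -0.03 in both. Slc16a3, which encodes the lactate exporter MCT4, was 3.03-fold above GK-Sham-PF and 2.92-fold above Wistar in GK-S-30 (adjusted p = 0.000405 and 7.41e-05 by limma). Its log2 signal ran from 14.59 to 15.54 in GK-S-30, from 12.94 to 13.85 in GK-Sham-PF and from 13.13 to 13.72 in Wistar, without overlap. Pdk3, a kinase that restrains pyruvate dehydrogenase, was 1.64-fold and 1.51-fold higher, and Pdk2, another such kinase, was lower, at 0.634 and 0.358 of the 2 levels. Against GK-Sham-PF, Pdk1 (0.44) and Pc (0.87), which encodes pyruvate carboxylase, were higher. Both were lower in GK-Sham-PF than in Wistar (-0.50 and -0.62), a difference that shares the GK-Sham-PF arrays and is not independent. Against Wistar, Dlat (0.35) and Bsg (0.46), the chaperone of lactate transporters, were higher. Between GK-Sham-PF and Wistar 0 rose and 3 fell, Pdk1, Pc and Pdk2 (-0.82), where 7.84% of all tested probes passed.

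Gluconeogenesis runs several of the same steps backwards. In GK-S-30 5 of its 6 tested genes fell against GK-Sham-PF, Pck1 (-2.53), G6pc1 (-3.48), Slc37a4 (-0.70), Fbp1 (-0.66) and Fbp2 (-0.29), and 3 of 6 fell against Wistar, Pck1 (-2.54), Slc37a4 (-1.02) and Fbp1 (-0.94). G6pc1 and Fbp2 did not pass against Wistar, which does not show that they were unchanged from it. The medians of the 6 genes were -0.68 and -0.98, and 0 of 6 passed between GK-Sham-PF and Wistar (median -0.10). Among all tested probes, 6.7%, 22.8% and 7.84% passed in these comparisons, in the same order.

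**Figure D4:**
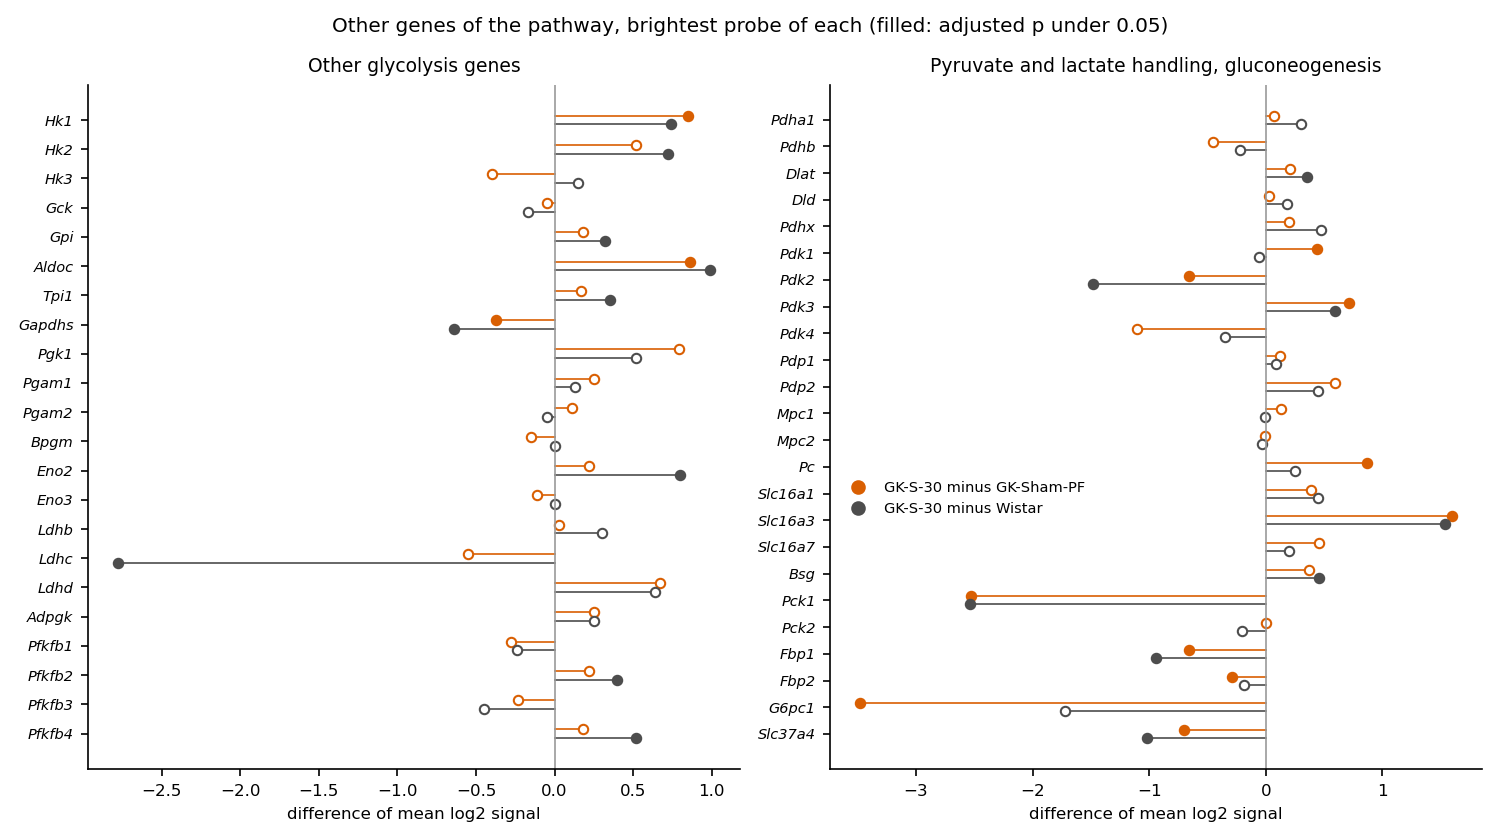
Difference of mean log2 signal of GK-S-30 from GK-Sham-PF (orange) and from Wistar (grey) for the brightest probe of each other glycolysis gene (left) and of pyruvate, lactate and gluconeogenesis genes (right), with filled points at an adjusted p under 0.05. Hk1 and Aldoc on the left and Slc16a3 and Pdk3 on the right are filled on the positive side in both comparisons, and Gapdhs, Pdk2, Pck1, Fbp1 and Slc37a4 on the negative side.

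Among 16 regulators of these genes, 14 did not pass in each comparison. Of all tested probes, 6.7% passed between the 2 GK groups, 7.84% between the sham group and Wistar, and 22.8% between the bypassed rats and Wistar. Against GK-Sham-PF Klf4 rose (0.67) and Txnip, which restrains glucose uptake, fell (-0.62), and against Wistar Mlxipl, the glucose-sensing factor ChREBP, fell (-0.77) with Srebf1 (-0.52). Txnip was higher (0.65) and Srebf1 lower (-0.65) in GK-Sham-PF than in Wistar. These differences share arrays with those just given for the same genes and are not independent of them. Hif1a, Myc, Ptbp1 and Hnrnpa1 did not pass in any comparison, and the list had a median of -0.01 for GK-S-30 minus the sham group, -0.04 for GK-S-30 minus Wistar and 0.06 for GK-Sham-PF minus Wistar.

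Of 13 genes known as targets of hypoxia-inducible factor, 5 rose against GK-Sham-PF (median 0.48) and 8 rose against Wistar (median 0.64), and 0 fell. The 5 were Egln3 (1.5), Slc2a1 (1.23), Ankrd37 (1.14), Bnip3 (0.71) and Egln1 (0.48), and against Wistar they were joined by P4ha1 (0.97), P4ha2 (0.43) and Hmox1 (1.09), while Vegfa and Car9 did not pass. Slc2a1 encodes the glucose transporter GLUT1. Between GK-Sham-PF and Wistar 1 fell, Egln3 (-0.56), and 0 rose (median -0.01).

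Promoter windows from RefSeq (GRCr8) were available for all 9 members, 12 windows in all. In the 250 bases before the start, ACGTG, a form of the core to which hypoxia-inducible factor binds, occurred on either strand in 4 of the 12 windows, each of a different gene, against 16.6% of 33469 promoters. GCGTG, its other form, occurred in 6 of 12 against 25.9%, and the palindrome CACGTG, which contains ACGTG on both strands, in 1 of 12 against 5.59%. The matches to ACGTG are shown as 30-base windows, with the match on the printed strand or its reverse complement in capitals.
Ldha, chr1:106507993-106508022, plus strand: tagcccagcctaCACGTGggttcccgcacg
Ldha, chr1:106508007-106508036, plus strand: cgtgggttcccgCACGTccgctgggcttcc
Aldoa, chr1:190836952-190836981, minus strand: tgtggctcgagtCACGTcctagcggggcgg
Gapdh, chr4:159652571-159652600, minus strand: gctttacgggtgCACGTagctcaggcctct
Pfkm, chr7:131113955-131113984, plus strand: ttagaccctcacCACGTacacgagctgata

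Among the genes with a match to ACGTG, Aldoa and Gapdh had GK-S-30 arrays above those of both other groups. Ldha, with 2 such matches, had near-equal means in the 3 groups, and for Pfkm the groups overlapped. Pfkl, the member called against GK-Sham-PF, had no match to ACGTG in its window. Matches to GCGTG, the other form, lay in windows of 5 of the 9 members and were not set beside the differences. The part of hypoxia-inducible factor in these differences was not tested. A match is a stretch of letters and was not measured as a binding site.

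Over the arrays, the genes most like Aldoa were Aldoart2, a retrotransposed copy of Aldoa (Pearson r = 0.988), Sdcbp2 (0.966) and Lrp5 (0.965), over 15 arrays. The Aldoart2 oligo shares no run of 15 bases with the Aldoa oligo, and whether transcripts of one bind the probe of the other was not tested. Most like Pfkl were Fut1 (0.94), Atp2a3 (0.937) and Ptpn18 (0.933), over 14 arrays. These values describe arrays that share slides, brightness and groups, and they carry no test.

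Smooth muscle moved with the group as well. Of 11 tested smooth muscle markers 7 rose in GK-S-30 relative to the sham group and 8 relative to Wistar, and 0 fell, with Actg2 (2.35) and Cnn1 (2.23) the largest against GK-Sham-PF. All 11 were well above background on every array, and the mean of the list on an array ran from 12.91 to 13.26 in GK-S-30, from 11.47 to 12.60 in GK-Sham-PF and from 11.69 to 12.41 in Wistar. The part of smooth muscle in the differences of Aldoa, Gapdh and Pfkl was not tested. Of 13 epithelium markers 1 rose against GK-Sham-PF, Krt19 (0.56), and against Wistar 3 rose and 1 fell, and the mean of the list ran from 14.63 to 14.80 in GK-S-30, 14.45 to 14.80 in GK-Sham-PF and 14.46 to 14.77 in Wistar. Red cells use glycolysis alone, and of 4 blood markers 1 rose against GK-Sham-PF and 2 against Wistar, with list means of 7.57 to 9.20, 7.65 to 8.39 and 7.38 to 8.01 in the same order. Striated muscle markers (6 tested) had 1 rise, Myh7 (2.71), and 1 fall against GK-Sham-PF and 2 rises and 1 fall against Wistar, and immune cell markers (10 tested) had 0 rises and 2 falls against GK-Sham-PF and 2 rises and 4 falls against Wistar. Proliferation markers (11 tested) rose for 0 and 2 genes and fell for 0. Pancreatic acinar markers (5 tested) had 1 fall against GK-Sham-PF and 2 rises and 1 fall against Wistar, and none of 10 enteric neuron and glia markers and 4 gastric markers passed in any comparison.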

How the data were processed

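RNA of an intestinal segment of each rat was read on a 1-colour Agilent array of the whole rat genome. The authors deposited, for each array, the intensity of each spot as Feature Extraction 10.7.3.1 wrote it, with background subtracted and no scaling between arrays. They also deposited quantile-normalized log2 values as a matrix, which keeps spots marked as outliers and served as an alternative here. The annotation build in the files is rn4.

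Control spots and spots marked as outliers were left out, spots of a probe were averaged on the log2 scale, and arrays were brought to 1 distribution by quantile normalization (limma, version 3.58.1, under R, version 4.3.3, with data.table, version 1.17.8). Each array had 45018 spots, none saturated outside the controls, and 66.7% to 74.8% of probes were well above background. To be tested, a probe had to be well above background on all arrays of some group. All 3 pairs of groups were compared with limma (lmFit, contrasts.fit, eBayes) over the 15 arrays, two-sided, with Benjamini-Hochberg adjustment over 27892 probes at 0.05. The median standard error of a log2 difference was 0.16, a precision set by the number of arrays and the spread between rats. For list genes the brightest tested probe was used. Pathway genes are named if they passed in a comparison, or were among the 2 largest differences of their list, and marker lists are given by counts with examples. A group in which a probe was never above background gives a lower bound, set against the lowest signal well above background on each array. Isoenzyme pairs were compared by exact two-sided permutation over rats, adjusted over 15 tests, among them those of a pair that is not reported here.

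Gene symbols came from a RefSeq table (GRCr8) by accession (17956 probes), symbol (2868) or synonym (519), and 98 kept the name in the file. The members and gene lists were chosen with earlier results of these data known. The procedure was checked on simulated data. Alternatives covered scaling, background correction, filters, slide, replicate number, array weights, the methods' one-way ANOVA with Tukey's correction, and leaving out arrays. Figures were drawn with matplotlib, version 3.10.9.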

Additional observations from a re-analysis of the deposited data

Results flagged for a closer look

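Within groups of 4 or 5 rats, 6 of 33 sets of member values held an array whose gap to its nearest neighbour took up more of the group's range than Dixon's 95% value allows, where chance flags about 1 group in 20. All 6 were lowest values of a dimmer array. On Wistar replicate 3 the gap as a share of the range was 0.738 for Pfkl (7.43, next 8.25), 0.91 for Aldoa (11.67, next 12.80), 0.857 for Gapdh probe 1 (15.92, next 16.39), 0.908 for Gapdh probe 2 (15.46, next 15.93) and 0.749 for Eno1 probe 1 (16.00, next 16.31). On GK-Sham-PF replicate 5 it was 0.765 for Aldoa (12.15, next 12.84). The 75th percentile of processed signal was 207 and 208 on these 2 arrays before normalization, and limma's array weights for them were 0.22 and 0.24, the lowest of the 15. The part of array brightness in the low member values was not tested. No GK-S-30 array stood apart in this way.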

How the results depend on the processing

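Aldoa above Wistar passed in 13 of 15 other settings and in all 15 fits without a single array, and lost its call in the methods' ANOVA with Benjamini-Hochberg adjustment (adjusted p = 0.062) and with slide as a fixed block (adjusted p = 0.413), which leaves few arrays per slide. Pfkl above GK-Sham-PF passed in 9 of 14 other settings. The filter for probes above background on all 15 arrays removed Pfkl before the test, so its call could not appear under that filter. Member probes called between the 2 GK groups numbered 4 under 75th percentile scaling, 3 without both dimmer arrays and in the methods' ANOVA with Tukey's correction, 2 with array weights or only the 2 groups compared, and 0 with Benjamini-Hochberg adjustment of that ANOVA, no filter on dim probes, probes above background on all 15 arrays, outlier spots kept, the deposited matrix or slide as a fixed block. Against Wistar they numbered 3 under 75th percentile scaling, 2 with array weights, the Tukey comparison or both dimmer arrays left out, and 0 under the adjusted ANOVA or the slide block, and array weights gave 1 between GK-Sham-PF and Wistar, Pfkp. Without single arrays these counts ran from 0 to 3, 1 to 2 and 0 to 1.

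Over all probes, calls between the 2 GK groups changed from 1868 to 3474 with array weights, 1238 with 1 probe per named gene, 3864 by Tukey and 762 by adjusted Tukey, 382 with slide as a fixed block, and 1199 to 2369 without single arrays (fewest without GK-Sham-PF replicate 1). Against Wistar, GK-S-30 calls changed from 6354 to 3285 with 1 probe per gene, 4163 by adjusted Tukey and 454 with the slide block, and GK-Sham-PF calls from 2187 to 4529 with array weights, 1089 with 1 probe per gene, 3776 by Tukey, 1383 by adjusted Tukey and 414 with the slide block. Slide as a random block changed no member's call. Same-numbered rats did not deviate together (r from -0.28 to 0.19), so the numbers are not pairs. With the replicate number as a block, calls between the GK groups numbered 1212, and Pfkl (0.79, adjusted p = 0.0312) and Aldoa above Wistar (0.86, adjusted p = 0.0201) stayed the only members called. No scaling moved the median of all probes by more than 0.1.

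Apart from Pfkl, sign changes concerned members that passed in neither setting, and the cause was not tested. For GK-S-30 minus GK-Sham-PF, Pfkl was -0.03 with outlier spots kept and in the matrix, Pfkp 0.05 under 75th percentile scaling, 0.01 after normexp and 0.23 with the slide block, Pklr 0.30 with the slide block, Eno1 probe 1 -0.01 with array weights and without the dimmer arrays, and Ldha -0.11 and -0.02 in those settings. For GK-S-30 minus Wistar, the slide block gave 0.07 for Eno1 probe 2, 0.13 for Pklr and 0.37 for Ldha, and 75th percentile scaling gave 0.08 for Ldha. For GK-Sham-PF minus Wistar, Pfkl was 0.47 with outlier spots kept and in the matrix, Pfkm -0.03 with the slide block, and Ldha 0.03 with array weights and 0.07 with the slide block. Without single arrays, GK-S-30 minus GK-Sham-PF ran from -0.09 to 0.04 for Pfkp, -0.26 to 0.03 for Pklr, -0.02 to 0.20 for Pkm, -0.01 to 0.10 and -0.01 to 0.17 for Eno1 probes 1 and 2 and -0.06 to 0.09 for Ldha. GK-Sham-PF minus Wistar ran from -0.06 to 0.33 for Aldoa, -0.13 to 0.02 and -0.14 to 0.00 for Gapdh probes 1 and 2 and -0.10 to 0.03 for Ldha, and GK-S-30 minus Wistar from -0.10 to 0.05 for Ldha.

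Among isoenzyme pairs, normexp background correction brought Pfkp minus Pfkl past the threshold between GK-Sham-PF and Wistar (0.43), with an adjusted exact permutation p of 0.0397. Without single arrays, Pkm minus Pklr in GK-S-30 against Wistar ran from 0.65 to 0.87, past the threshold without GK-S-30 replicate 2. In the matrix, Pfkm minus Pfkl was 0.25 and Pfkp minus Pfkl 0.02 for GK-S-30 minus GK-Sham-PF, and -0.39 and -0.19 for GK-Sham-PF minus Wistar. Pfkm minus Pfkl against Wistar was 0.05 without both dimmer arrays and -0.23 to 0.05 without single arrays. Ldha minus Ldhb against GK-Sham-PF was 0.03 under 75th percentile scaling, 0.08 without both dimmer arrays and -0.19 to 0.13 without single arrays.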
